A study of Rattus norvegicus with 15 samples.

Results

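Cytosolic ribosomal protein genes were followed across rat prostate RNA-seq libraries. Members were the protein-coding rows whose symbol begins with Rpl or Rps and a digit, together with Rplp0, Rplp1, Rplp2 and Rpsa; kinases of the Rps6k family, symbols marked as pseudogenes and symbols beginning with LOC were left out. This rule took 100 of the 18127 protein-coding genes. Of these, 73 carry the plain name of a ribosomal protein (44 of the large subunit with its stalk, 29 of the small subunit), and 27 carry another name, such as the paralogue Rpl22l1. The 73 plain-named genes are called ribosomal protein genes below, and the other 27 are described on their own.

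The libraries came from prostate tissue of SD rats, with 5 in each of 3 groups numbered 6 to 10. Control had no treatment. The Model group stands for chronic prostatitis and chronic pelvic pain syndrome (CP/CPPS), and its treatment field also reads "No"; how the disease was induced is not given in the sources used here. The LIPUS group received low-intensity pulsed ultrasound for 4 weeks, at an intensity given as 1.0 W/cm2 in the sample titles and as 1.5 W/cm2 in the treatment field. Its sample titles name the treatment and do not mention the model. Age, and whether a library stands for 1 animal, are not given either, so the p-values refer to the spread of the 5 libraries of a group, which could be technical alone.

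A cytosolic ribosome joins a large subunit, which forms peptide bonds, to a small subunit, which reads the mRNA, and each ribosomal protein is present once per ribosome except for the stalk proteins Rplp1 and Rplp2. Ribosomal protein mRNAs are among the most abundant and shortest of a cell. Most begin with a C and a run of pyrimidines, the 5′ terminal oligopyrimidine (TOP) motif, through which the kinase complex mTORC1 and the RNA-binding protein Larp1 control their translation and stability. The prostate epithelium is a secretory tissue with a high demand for protein synthesis.

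The windows around the annotated transcription starts of some of these genes are shown because the TOP motif is the feature that the family is known to share. They run from 15 bases before to 15 bases after the RefSeq start (build GRCr8, strand of the gene, 5′ to 3′). Capitals mark the longest run of C and T that lies at or close to the start. Rplp1, Rps15 and Rps27 rose in Model by 1.80, 1.69 and 1.58 on the log2 scale, Rplp0, Rps18 and Rpl10a were among those that did not pass the test there as deposited, Rpl11 rose by 1.55 and holds no such run, and Rpl36al, Rps27l and Rpl7l1 are paralogues.
Rplp1, chr8:71290858-71290887, minus strand: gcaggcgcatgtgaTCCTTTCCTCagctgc
Rps15, chr7:10068101-10068130, minus strand: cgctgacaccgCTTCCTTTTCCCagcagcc
Rps27, chr2:177964592-177964621, minus strand: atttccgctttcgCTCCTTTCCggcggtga
Rplp0, chr12:46718376-46718405, minus strand: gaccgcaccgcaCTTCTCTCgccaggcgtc
Rps18, chr20:4933730-4933759, plus strand: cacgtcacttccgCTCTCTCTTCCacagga
Rpl10a, chr20:6390518-6390547, plus strand: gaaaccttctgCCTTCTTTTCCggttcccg
Rpl11, chr5:153560788-153560817, minus strand: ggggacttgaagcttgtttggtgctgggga
Rpl36al, chr6:93392244-93392273, minus strand: tccgacttccgctccatccgTCCCTTTCCT
Rps27l, chr8:76443643-76443672, plus strand: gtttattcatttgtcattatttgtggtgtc
Rpl7l1, chr9:21695703-21695732, plus strand: agctgcagatgcattgtgggaagcctttaa
The first 6 windows were picked for their C and pyrimidine start, which most of the family's annotated starts lack. Rpl36al holds a run after its start, and the windows of Rpl11, Rps27l and Rpl7l1 hold no marked run. A short run near the end of the Rpl7l1 window lies further from the start and is not marked.

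Over the family, 57 of the 73 genes matched a RefSeq promoter entry by gene number. A C at the annotated start followed by 4 or more C or T was found in 21 of the 57 (36.8%), against 2.95% of the 10082 tested genes with an entry. A run of at least 7 C or T within 20 bases of the start, on the gene's strand, was found in 47 (82.5%), against 22.2% of the tested genes. Of 20 other-named members with an entry, 1 had the C and pyrimidine start and 7 the run. The letters CTTTCC stood within 20 bases of the start in 16 (28.1%), against 1.99%, and they overlap the pyrimidine runs. The letters TATAAA, on either strand within 50 bases before the start, were found in 5 (8.77%), against 2.05%. The genes with a C and 4 pyrimidines at the start had a median log2 change in Model of 1.16, and the 36 without it of 1.19. For the run of 7 the medians were 1.16 in the 47 genes with it and 1.26 in the 10 without. With CTTTCC near the start the median was 1.34 in 16 genes, and it was 1.06 in the 41 without. These differences were not tested. A match describes the letters at the annotated start only.

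Libraries held 29675962 to 36402094 reads, as recovered from the deposited FPKM (fragments scaled by gene length and by the library's total). The 13 mitochondrially encoded genes took 3.75 to 4.69% of reads in Control, 23.5 to 43.5% in Model and 43.0 to 83.3% in LIPUS, and FPKM divides every nuclear gene by a total that includes them. For this reason each comparison is given on FPKM as deposited and again after scaling each library by its median-of-ratios factor, which was 1.62 to 1.78 in Control, 0.882 to 1.12 in Model and 0.299 to 1.09 in LIPUS. Between Control and Model this factor moved the median gene from -0.90 to -0.15 on the log2 scale. Marker lists moved between the groups as well. The summed FPKM of 5 fibroblast genes ran from 687 to 1291 in Control, from 59.5 to 160 in Model and from 77.9 to 208 in LIPUS, and that of 5 genes of dividing cells ran from 31.9 to 61.2 in Control, from 0.141 to 0.348 in Model and from 0.792 to 2.21 in LIPUS. The 3 ventral prostate secretory genes summed to 134665 to 225577 FPKM in Control, to 231 to 68182 in Model and to 3558 to 123630 in LIPUS, while 2 dorsolateral genes ran from 3895 to 60207, from 309 to 177705 and from 2962 to 42864. The 4 epithelial keratin and adhesion genes summed to 396 to 442 FPKM in Control and to 298 to 481 in Model and 95.9 to 334 in LIPUS, and none of these 4 was at 0. The 8 leukocyte genes stood at 9.87 to 17.0, 4.84 to 15.1 and 13.6 to 23.8 FPKM in Control, Model and LIPUS. These sums are as deposited. After scaling, in the same order, the epithelial sum was 244 to 266, 265 to 523 and 268 to 355 FPKM. The scaled leukocyte sum was 6.07 to 9.59, 5.36 to 13.4 and 12.5 to 45.9. Scaled fibroblast sums were 424 to 727, 52.9 to 156 and 71.5 to 473. For dividing cells they were 19.4 to 36.9, 0.125 to 0.352 and 1.95 to 3.57. The scaled ventral sum was 81456 to 137691, 256 to 60633 and 11893 to 191366. The part of these lists in the results below was not tested, and in bulk tissue fewer cells of a type and less RNA per cell cannot be told apart.

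Ribosomal protein genes took a larger share of the reads in Model than in Control. Of all reads, they took 2.92, 3.33, 3.99, 2.76 and 2.83% in Control libraries 6 to 10, 6.48, 5.78, 7.57, 7.94 and 9.08% in Model, and 3.18, 5.55, 6.32, 4.02 and 2.56% in LIPUS. Every Model library lay above every Control library, whereas LIPUS overlapped both. Outside the mitochondrially encoded genes their share averaged 3.31% ± 0.535 for Control, 11.3% ± 0.746 for Model and 11.5% ± 3.70 for LIPUS (SD, n = 5). On this base the lowest LIPUS library held 7.78% and the highest Control library 4.18%, so LIPUS no longer overlapped Control. The LIPUS libraries with the largest shares, 8 at 15.6% and 10 at 15.3%, stood above all Model libraries, and the other 3 stood below them. The 73 genes together reached 46068 ± 7477 FPKM in Control and 110448 ± 21405 in Model, with LIPUS at 63152 ± 23002 (SD, n = 5). These shares are scores over the family and carry no test.

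**Figure D1:**
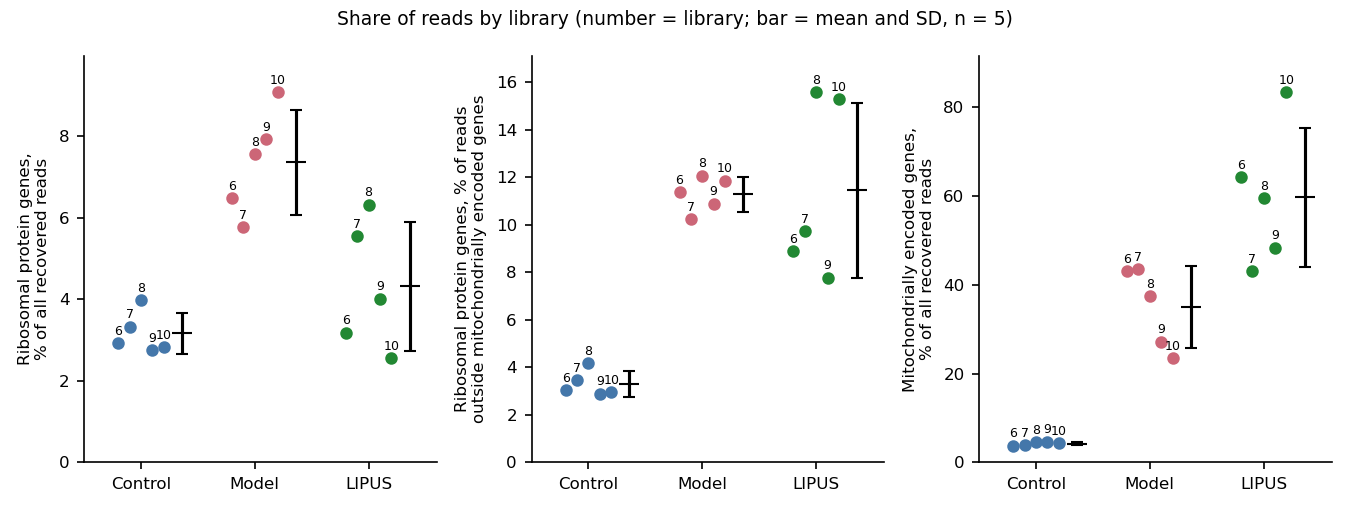
Share of reads in each library (points, numbered by library), with the group mean and SD (n = 5): the 73 ribosomal protein genes as percent of all reads (left) and of reads outside mitochondrially encoded genes (middle), and the mitochondrially encoded genes as percent of all reads (right). LIPUS overlaps Control on the left and lies above it in the middle.

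The question of the Model against Control comparison is which transcripts differ in the prostatitis model. As deposited, 60 of the 73 ribosomal protein genes rose and 0 fell (limma, Benjamini-Hochberg adjusted p under 0.05), and the family's median log2 change was 1.16. Over all 12490 tested genes 2.95% rose and 43.1% fell, with a median of -0.90. At least 2-fold higher levels were reached by 44 of the 60. After scaling, 72 of 73 rose, with a median of 1.94, against 15.3% of all tested genes (20.2% fell). The exception was Rpl7a, with a scaled log2 change of 0.61 and an adjusted p of 0.068. In 57 genes every Model library lay above every Control library as deposited (3.16% of all tested genes), and in 72 after scaling (14.1%). No ribosomal protein gene was lower at an unadjusted p under 0.05 on either scale, and limma-voom on the recovered reads called 64 higher and 0 lower. Here and below, counts by limma-voom and at an unadjusted p come without the share of all tested genes.

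**Figure D2:**
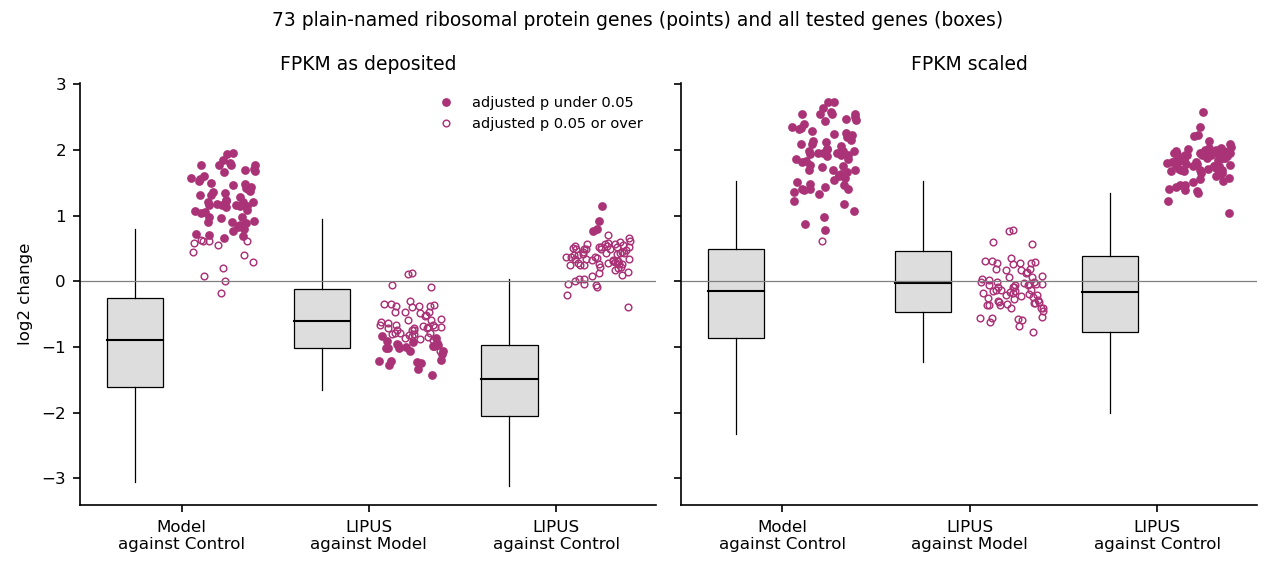
log2 change of each of the 73 ribosomal protein genes (points; filled at adjusted p under 0.05) in 3 comparisons, on FPKM as deposited (left) and scaled (right), beside all 12490 tested genes (box, 25th to 75th percentile with the median; whiskers, 5th to 95th). The points of Model against Control lie mostly above the boxes on both scales, and those of LIPUS against Model fall around the box after scaling.

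Most genes of either subunit rose. Of 44 large-subunit genes 35 rose as deposited (median 1.21), and of 29 small-subunit genes 25 rose (median 1.06); after scaling 43 of 44 and 29 of 29 rose. The large subunit's part of the family's FPKM averaged 55.6% ± 0.439 for Control, 57.0% ± 0.551 for Model and 56.3% ± 0.940 for LIPUS (SD, n = 5).

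In the stalk, which recruits the translation GTPases, the 3 P proteins differed in size of change. Rplp1, one of the paired stalk tips, measured 518, 711, 743, 538 and 536 FPKM in Control, 1924, 904, 2392, 3102 and 3106 in Model and 626, 1086, 1390, 1048 and 569 in LIPUS. All Model libraries exceeded all Control libraries, with Model 7 the lowest, and the log2 change was 1.80 (SE 0.35, adjusted p = 0.0007 by limma). Rplp2, its partner at the tip, rose by 0.91 (adjusted p = 0.0074) from 283 ± 48.6 to 528 ± 59.0 FPKM (SD, n = 5). Rplp0, the base of the stalk and a frequent reference gene, stood at 509, 621, 721, 538 and 526 FPKM in Control and 982, 983, 873, 634 and 1034 in Model, with the groups overlapping through Model 9. Its log2 change was 0.62 as deposited (adjusted p = 0.063) and 1.40 after scaling (adjusted p = 0.00015). Rpl12, which binds beside the stalk, rose by 1.21 (adjusted p = 0.015), with Model libraries spread from 239 to 841 FPKM.

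Around the peptidyl transferase centre, where peptide bonds form, 1 of 3 genes rose as deposited and all 3 rose after scaling. Over the family 60 and 72 of 73 did. Rpl3 measured 333, 422, 481, 333 and 346 FPKM in Control, 413, 603, 420, 333 and 448 in Model and 302, 462, 573, 278 and 254 in LIPUS, so that all 3 groups overlapped (log2 change in Model 0.20, adjusted p = 0.57; 0.98 after scaling, adjusted p = 0.003). Rpl10, which is added late to the large subunit, stood at 1007, 1002, 1292, 1020 and 925 FPKM in Control and 801, 2440, 1123, 706 and 808 in Model. Model 7 held more than any other library, and the log2 change of 0.01 (adjusted p = 0.99) became -0.30 without it. After scaling Rpl10 rose by 0.79 (adjusted p = 0.04), a call that was lost without Model 7 (0.53, adjusted p = 0.056). Rpl8 rose by 1.08 (adjusted p = 0.0041) as deposited.

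The 5S particle, which carries the 5S rRNA and binds Mdm2 when it is free, rose with both of its proteins. Rpl5 had 789 ± 99.1 FPKM in Control and 2168 ± 430 in Model (log2 change 1.44, adjusted p = 0.001), and Rpl11 had 335 ± 63.7 and 1006 ± 283 (1.55, adjusted p = 0.00085; SD, n = 5). LIPUS stood between them at 1174 ± 478 FPKM for Rpl5 and 519 ± 212 for Rpl11. Of the 9 genes at the exit tunnel and its rim, all rose as deposited, where 60 of the family's 73 did. Their changes ran from 0.69 for Rpl22 to 1.95 for Rpl17. Rpl17, at the tunnel exit, measured 584, 470, 778, 368 and 538 FPKM in Control, 2032, 1447, 2310, 1979 and 2677 in Model and 1052, 1389, 2016, 972 and 774 in LIPUS. Its Model libraries all lay above its Control libraries, and LIPUS overlapped both groups, with only LIPUS 10 inside the Control range.

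On the small subunit, Rps3 at the mRNA entry rose from 688 ± 79.6 to 1377 ± 270 FPKM (SD, n = 5; log2 change 0.99, adjusted p = 0.0072), and Rps2 beside it had a change of 0.62 (adjusted p = 0.059; 1.40 after scaling, adjusted p = 0.00019). Rpsa, the laminin receptor protein at the mRNA exit, rose by 1.37 (adjusted p = 0.0019), and Rps14, at the platform, by 1.04 (adjusted p = 0.007). Rps6, the substrate of the S6 kinases below mTORC1, measured 1006, 1215, 1282, 914 and 1045 FPKM in Control, 2042, 1924, 2034, 1756 and 2542 in Model and 1090, 1895, 2094, 1276 and 891 in LIPUS. Control and Model did not overlap, and the log2 change was 0.91 (SE 0.27, adjusted p = 0.011).

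Among the largest changes in Model were those of Rps27a and Rpl17. Rps27a, made as a fusion with ubiquitin, measured 541, 540, 800, 356 and 588 FPKM in Control, 1751, 1222, 2444, 2796 and 2862 in Model and 665, 1127, 1676, 1250 and 356 in LIPUS, a 3.92-fold ratio of the Model and Control means (log2 change 1.95, SE 0.39, adjusted p = 0.00085). The smallest changes were those of Rpl7a, Rpl10 and Rpl27. Rpl7a measured 407, 428, 556, 407 and 372 FPKM in Control, 305, 746, 384, 276 and 335 in Model and 379, 548, 660, 318 and 272 in LIPUS, where Model 7 again stood above the rest of its group. The as-deposited changes of Rpl7a (-0.17, adjusted p = 0.67) and Rpl27 (0.09, adjusted p = 0.83) missed the test, and without Model 7 that of Rpl27 was -0.10.

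Of 5 genes often taken as references, 3 rose in Model as deposited and 5 after scaling, where 60 and 72 of the family's 73 did. Rpl13a, which also has a role in silencing inflammatory mRNAs, had a Control mean of 579 ± 92.6 FPKM, a Model mean of 2013 ± 506 and a LIPUS mean of 1054 ± 421 (SD, n = 5; Model against Control 1.77, adjusted p = 0.0003). Rps18 stood at 629 ± 124, 842 ± 230 and 806 ± 273 (Model against Control 0.40, adjusted p = 0.25; 1.18 after scaling, adjusted p = 0.0024). Of the 10 plain-named genes mutated in Diamond-Blackfan anaemia, 7 rose as deposited and 10 after scaling, where 60 and 72 of the family's 73 did. A further 2 stand under other names.

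Levels within the family kept much of their order. Rpl41, which encodes a very short peptide, was the highest in each group, with a Control mean of 2761 ± 360 FPKM, a Model mean of 9721 ± 2807 and a LIPUS mean of 4142 ± 1883 (SD, n = 5), and Rps14 and Rpl26 followed it in Control. Lowest in Control were Rpl37 at 25.4, Rpl28 at 147 and Rps10 at 178 FPKM. The row named Rpl37 carries a gene number that RefSeq (GRCr8) now names Rpl37l1. The gene now named Rpl37 stands in a row outside the name rule, with means of 636 ± 130, 1527 ± 326 and 902 ± 354 FPKM for Control, Model and LIPUS (SD, n = 5; Model against Control 1.26, adjusted p = 0.0024). Spearman's rho of mean FPKM across the 73 genes was 0.87 between Control and Model, 0.96 between Control and LIPUS and 0.94 between Model and LIPUS; genes are not independent replicates. The SD of log2 level over the 73 genes averaged 0.98 ± 0.01 for Control, 1.16 ± 0.10 for Model and 1.02 ± 0.02 for LIPUS (mean ± SD of 5 libraries).

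To ask which members moved against the rest of the family, each library was centred on the median of the 73 genes. On this scale 20 genes rose and 15 fell in Model against Control, where 0.729% of all tested genes rose and 86.9% fell. Centring places the family around 0 by construction. In every comparison the contrast with all tested genes on this scale is therefore no result about the family as a whole. The set that rose included Rpl17 (0.88, adjusted p = 0.0002), Rpl13a (0.70, adjusted p = 0.0014), Rps12 (0.59, adjusted p = 0.0033) and Rps27a (0.88, adjusted p = 0.0033). The set that fell was led by Rpl10a (-0.77, adjusted p = 0.00046), Rpl7a (-1.24, adjusted p = 0.00057), Rpl3 (-0.87, adjusted p = 0.001) and Rpl27 (-0.98, adjusted p = 0.0017), with Rpl10 at -1.07 (adjusted p = 0.0061). Model 7 stood nearer to Control than the other Model libraries for most of these genes. Among the Model libraries it also held the highest ventral sum (68182 FPKM) and the lowest dorsolateral sum (309 FPKM) of the secretory genes. Its fibroblast sum was the lowest of the Model group (59.5 FPKM), and so the furthest from Control. Any link to the values of Model 7 was not tested. Without Model 7 the counts were 22 and 20, without Model 9 they were 16 and 9, and without Model 10 they were 18 and 10.

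**Figure D3:**
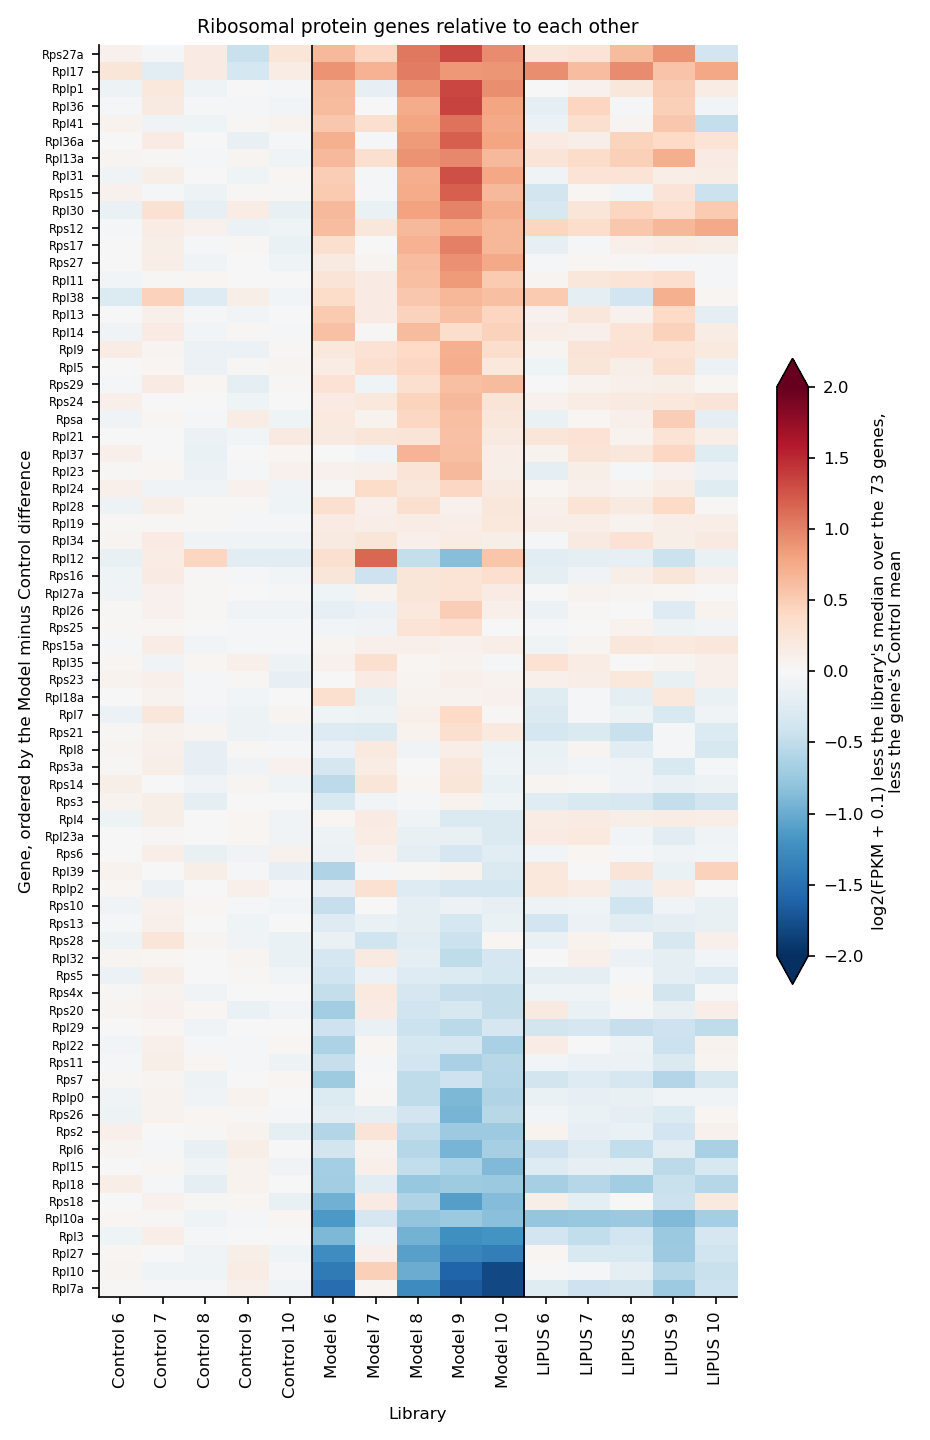
Level of 72 of the 73 ribosomal protein genes (rows) in each library (columns), as log2(FPKM + 0.1) less the library's median over the 73 genes and less the gene's Control mean; red is above and blue below. Model 6, 8, 9 and 10 show the same rows high and low, and Model 7 shows them weakly. LIPUS lies between Control and those 4 libraries in many rows, though not in all. Against Control, Rps3 changed by -0.34 in LIPUS and -0.08 in Model, and Rpl29 by -0.42 and -0.37 (group means of 5 libraries).

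LIPUS against Model asks whether transcripts differ with treatment. As deposited, 25 of the 73 genes fell and 0 rose (limma, adjusted p under 0.05; 55 and 0 at an unadjusted p under 0.05; 32 and 0 by limma-voom), where 13.3% of all tested genes fell and 1.31% rose. The family's median was -0.78, and that of all tested genes -0.60. The lowest adjusted p belonged to Rps15, which had 2867, 1607, 3495, 4556 and 4173 FPKM in Model and 787, 1710, 1847, 1433 and 615 in LIPUS, overlapping through Model 7 (log2 change -1.43, adjusted p = 0.027). Rpl41 fell by 1.33 (adjusted p = 0.03), Rpl36 by 1.27 (adjusted p = 0.032) and Rps27a by 1.25 (adjusted p = 0.044), and the scaled changes of these 4 genes lay between -0.77 and -0.59. At the other end were Rpl10 (0.12, adjusted p = 0.82), Rpl7a (0.11, adjusted p = 0.81) and Rpl27 (-0.05, adjusted p = 0.91), the genes with the smallest changes in Model. After scaling 0 of 73 genes were called in either direction (limma; 2.72% of all tested genes rose and 1.49% fell), with a family median of -0.13; at an unadjusted p under 0.05, 4 were higher and 2 lower. The count as deposited rested on single libraries and on the fit. It was 0 without Model 6, 8, 9 or 10 or LIPUS 6 and with only the 10 libraries compared, 42 without Model 7, 52 without LIPUS 7, 38 without LIPUS 8, 11 without LIPUS 9 and 6 without LIPUS 10. Relative to the family, 0 genes were called either way (limma; 2.79% and 0.32% of all tested genes higher and lower), with 4 higher and 8 lower at an unadjusted p under 0.05.

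LIPUS against Control compares the treated group with the Control group, so the disease model and the treatment may both differ in it. It shares the Control libraries with the first comparison and the LIPUS libraries with the second. As deposited, 4 genes rose and 0 fell (limma; 5 and 0 at an unadjusted p under 0.05 and by limma-voom), where 0.953% of all tested genes rose and 74.4% fell, and the family median of 0.38 stood beside -1.48 for all tested genes. Among them were Rpl17 (1.14, adjusted p = 0.0032), Rps12 (0.92, adjusted p = 0.0084) and Rpl13a (0.77, adjusted p = 0.033). Rps12, a small-subunit protein near the beak, measured 314, 392, 478, 281 and 298 FPKM in Control, 1083, 679, 1167, 1212 and 1492 in Model and 482, 750, 992, 674 and 495 in LIPUS. It was the 1 gene of the 73 whose LIPUS libraries all exceeded the Control libraries as deposited, where 0.416% of all tested genes did. Without LIPUS 10, the library with 83.3% mitochondrially encoded reads, 26 genes rose. After scaling all 73 genes rose (11.6% of all tested genes), with a median of 1.81, and in all 73 the groups did not overlap (11.2%). Relative to the family 4 rose, the same 4 genes, and 6 fell (0.56% and 87.3% of all tested genes). Rpl10a fell most clearly (-0.77, adjusted p = 0.00053), followed by Rpl18 (-0.59, adjusted p = 0.0033), Rpl29 (-0.42, adjusted p = 0.015) and Rps3 (-0.34, adjusted p = 0.043). The lowest changes as deposited were those of Rpl10a (-0.39, adjusted p = 0.17), Rpl18 (-0.21, adjusted p = 0.43) and Rpl3 (-0.09, adjusted p = 0.76), and after scaling these 3 rose by 1.04, 1.22 and 1.34. Rpl10a measured 222, 241, 287, 202 and 217 FPKM in Control, 215, 307, 287, 283 and 355 in Model and 141, 235, 274, 155 and 123 in LIPUS.

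Ribosomal protein genes are short, and length moved with the change across all genes. Their recovered lengths ran from 318 to 1933 bases with a median of 690, against a median of 3004 for all tested genes. Over all tested genes Spearman's rho between length and log2 change was -0.32 for Model against Control, -0.02 for LIPUS against Model and -0.40 for LIPUS against Control. Within the 73 genes it was -0.16 for Model against Control. In genes of up to 500 bases the median change in Model was 1.35 for 21 ribosomal protein genes and 0.24 for 223 other tested genes; in the next class, up to 750 bases, the medians were 1.15 and 0.09, up to 1000 bases 1.07 and -0.25, and up to 2000 bases 1.20 and -0.55. After scaling, the other tested genes that rose made up 41.3% of those up to 500 bases and 44.7% of those up to 750 bases, against 15.3% of all tested genes, and all 21 ribosomal protein genes of either class rose. Among other genes above 100 FPKM, 21 of 35 and 29 of 47 rose in these classes after scaling, with medians of 1.09 and 0.97 against 2.12 and 1.93 for the ribosomal protein genes. As deposited, 25.7% and 23.4% of these abundant genes rose, with medians of 0.30 and 0.19. With each library's trend on length removed, a setting chosen after the data were seen, 60 ribosomal protein genes rose in Model and 0 fell, and 60 rose in LIPUS against Control. The shares of all tested genes that rose or fell are not given for this setting, so these counts have no background beside them.

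**Figure D4:**
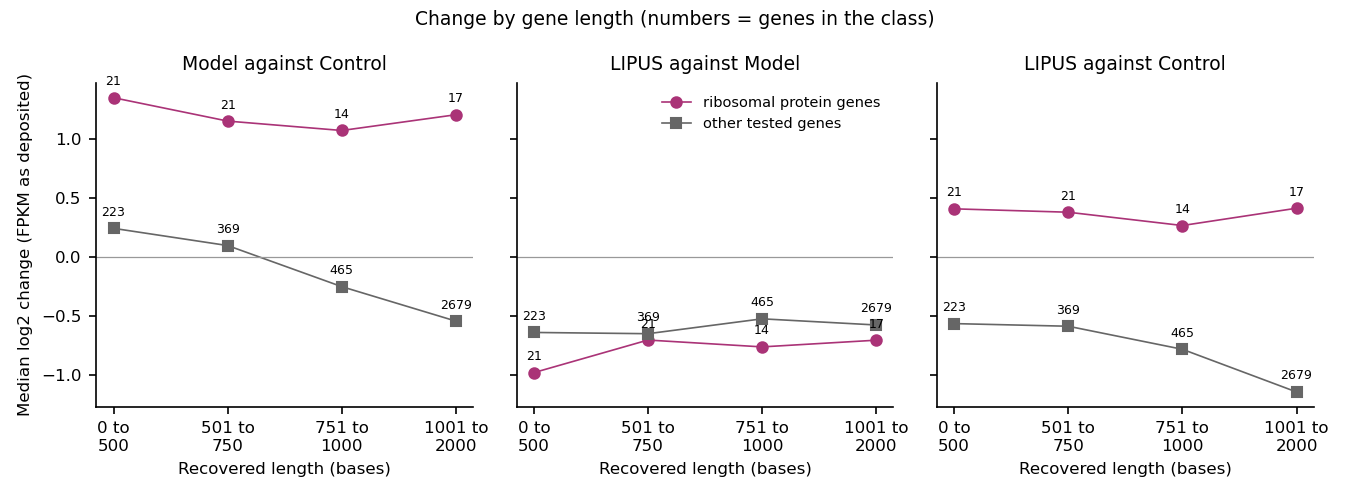
Median log2 change (FPKM as deposited) by recovered gene length in 3 comparisons, for ribosomal protein genes (circles) and other tested genes (squares); numbers give the genes in each class. In Model against Control and LIPUS against Control the ribosomal protein genes lie above other genes in every length class shown.

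Of the 27 members with another name, 19 passed the filter on low values, and 12 of these rose in Model as deposited while 0 fell (2.95% and 43.1% of all tested genes). After scaling 14 rose and 0 fell (15.3% and 20.2%). Rpl35al1, Rps19l2 and Rps9l1 carry the gene numbers that RefSeq now names Rpl35a, Rps19 and Rps9. They rose with the family, by 1.95 (adjusted p = 0.00084), 1.78 (adjusted p = 0.0015) and 0.83 (adjusted p = 0.018). The others that rose were Rpl31l2, Rpl31l4, Rpl5l1, Rps15al4, Rps12l3, Rps12l2, Rps10l1, Rpl22l1 and Rpl36al, with changes from 0.86 for Rpl36al to 2.03 for Rpl31l4, Rpl31l2 aside. Rpl31l2 had 4 reads over the 5 Control libraries, 99 over Model and 36 over LIPUS, and both it and Rps12l3 passed the filter through Model and LIPUS libraries alone, so their calls are no support for a rise. Not called were Rpl7l1, Rps27l, Rps4y2, Rpl10l, Rpl27-l1, Rps18l1 and Rps15al2. The 8 left out as low were Rpl22l2, Rpl30l1, Rpl31l1, Rpl39l, Rpl3l, Rps17l, Rps19bp1 and Rps19l1, none above 1.30 FPKM on average in any group. Rps19bp1 encodes a binding protein and not a subunit. Rpl3l, the muscle form of Rpl3, was listed at 0 in 3 Control, 4 Model and 4 LIPUS libraries. Reads of these genes can be shared with near-identical copies. A further 176 rows carry a RefSeq symbol of a ribosomal protein gene or copy, among them the gene now named Rpl37. Their reads equalled 4.05% of those of all 100 members for Control, 3.35% for Model and 3.54% for LIPUS.

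A ratio of paralogues within a library is free of library scaling, and 5 pairs with both genes above the filter were tested over 3 comparisons (exact permutation test over all splits of 5 against 5 libraries, two-sided, adjusted over 15 tests; the smallest p the design allows is 0.0079). Rpl7l1, a homologue of Rpl7 that works in ribosome assembly, measured 35.8, 36.4, 42.9, 34.8 and 36.1 FPKM in Control, 21.9, 32.6, 18.7, 19.5 and 19.6 in Model and 12.4, 26.0, 16.9, 12.8 and 5.66 in LIPUS. Its log2 ratio to Rpl7 was lower by 1.89 in Model and by 1.70 in LIPUS than in Control, a change of -1.89 and -1.70, with no overlap in either (exact adjusted p = 0.03 for both). Its scaled levels were 22.2 ± 1.14, 22.8 ± 3.76 and 21.5 ± 2.64 FPKM in Control, Model and LIPUS (SD, n = 5). Relative to the family median, 86.9% of all tested genes were called lower in Model against Control and 87.3% in LIPUS against Control (limma). A lower ratio to a ribosomal protein gene was thus the usual case and is not particular to a paralogue.

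Rps27l, a close relative of Rps27, measured 393, 236, 327, 302 and 309 FPKM in Control, 117, 631, 226, 123 and 207 in Model and 185, 350, 225, 150 and 57.6 in LIPUS. Its log2 ratio to Rps27 changed by -1.27 in LIPUS against Control with no overlap (exact adjusted p = 0.03). In Model the change was -2.12 (exact adjusted p = 0.085), with Model 7 inside the Control range at -1.31 and the other 4 between -4.82 and -3.70. Rpl36al, a copy of Rpl36a, differed from its partner by -0.97 in LIPUS against Control (exact adjusted p = 0.03) and by -0.91 in Model (exact adjusted p = 0.085), where Model 7 stood at 0.36 and the others from -1.09 to -0.89. Without Model 7 the Model changes were -2.71 for Rps27l and -1.18 for Rpl36al (exact adjusted p = 0.017 for both). Rpl22l1, the homologue of Rpl22, rose in level in Model (0.99, adjusted p = 0.0083 by limma), but its ratio to Rpl22 had a change of 0.31 (exact adjusted p = 0.28; 0.50 without Model 7, exact adjusted p = 0.048). In LIPUS its ratio was lower than in Control by a change of -0.37 (exact adjusted p = 0.048), and against Model by -0.68 (exact adjusted p = 0.089; -0.87 without Model 7, exact adjusted p = 0.017). The ratio of Rpl10l, the testis-type copy, to Rpl10 was not called in any comparison at exact adjusted p-values from 0.21 to 0.79. Of the 5 called ratios, both of Rpl7l1 and those of Rps27l and Rpl36al in LIPUS against Control lost their call without Control 6, 7, 9 or 10 (exact adjusted p = 0.06), as did Rps27l without LIPUS 8 or 10. That of Rpl22l1 was lost without any of these 4 Control libraries or LIPUS 6, 7, 8 or 10 (exact adjusted p from 0.071 to 0.089).

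**Figure D5:**
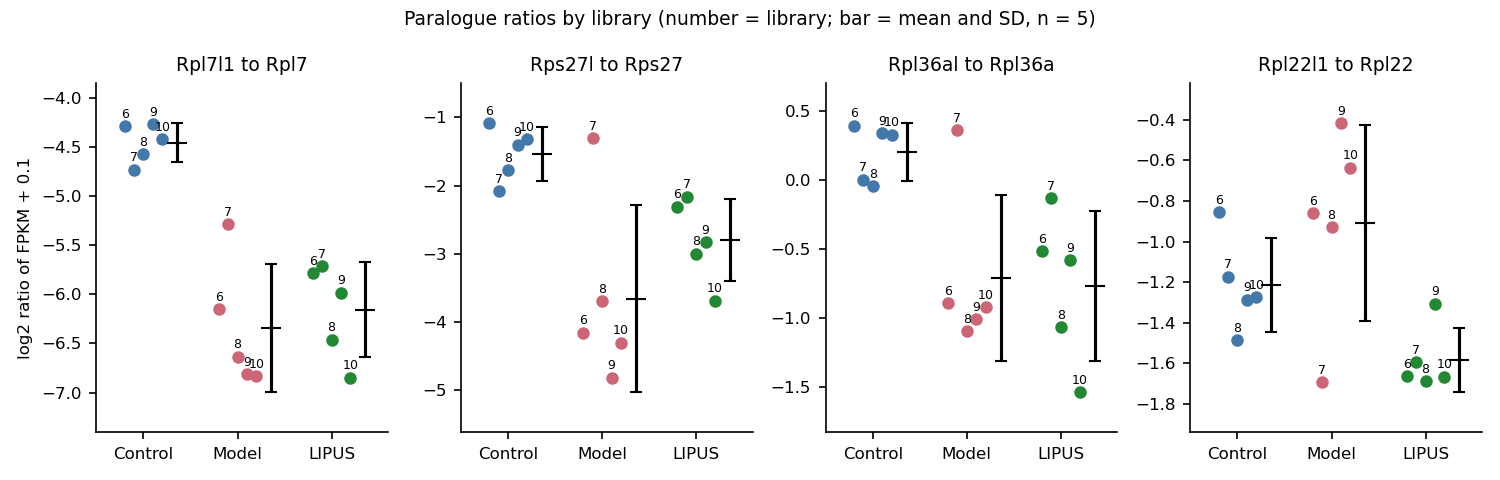
log2 ratio of each paralogue to its partner (FPKM + 0.1) in every library (points, numbered by library) with the group mean and SD (n = 5). Rpl7l1 separates Control from both other groups, and Model 7 is the Model library at one end of its group for all 4 pairs.

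Other genes of the pathway are counted beside all tested genes, of which 2.95% rose and 43.1% fell in Model as deposited (median -0.90) and 15.3% and 20.2% after scaling (median -0.15). Of 20 tested companions of the TOP class, mostly translation factors, 4 rose and 3 fell in Model as deposited (15 and 2 after scaling). Fau, which encodes Rps30 as a fusion, rose from 325 ± 71.3 to 1009 ± 250 FPKM (1.62, adjusted p = 0.00071), while Pabpc1, the poly(A)-binding protein, fell from 501 ± 71.6 to 109 ± 99.8 (-2.59, adjusted p = 0.00014; SD, n = 5). Of 52 genes of ribosome assembly and rRNA transcription, 0 rose and 17 (32.7%) fell as deposited (10 and 6 after scaling), with a median of -0.68, a smaller share than among all tested genes. Bms1, a GTPase of small-subunit assembly, fell by 1.96 (adjusted p = 0.00033) and Ncl, the nucleolar protein nucleolin, by 1.37 (adjusted p = 0.00047). Of 18 genes of mTORC1 and TOP control, 0 rose and 10 (55.6%) fell as deposited and 2 rose and 3 (16.7%) fell after scaling, near the shares of all tested genes. Eif4g1, the initiation scaffold, fell by 3.39 (adjusted p = 6.4e-06) and Eif4ebp2, an inhibitor of the cap-binding protein, by 1.48 (adjusted p = 0.0013). Of 14 surveillance genes 0 rose and 4 (28.6%) fell (3 and 2 after scaling), again a smaller share than among all tested genes, among them Ascc3 (-2.07, adjusted p = 0.0026), a helicase that splits collided ribosomes. The nuclear genes for mitochondrial ribosomal proteins, which make a separate ribosome, had a median of -0.04 in Model as deposited, with 6 of 73 higher and 7 lower, and of 0.73 after scaling, with 48 higher and 0 lower. In LIPUS against Model as deposited, where 13.3% of all tested genes fell, 1 of 20 TOP companions, 8 assembly (15.4%), 5 mTORC1 (27.8%), 4 surveillance (28.6%) and 27 of 73 mitochondrial ribosomal protein genes fell. Eef1b2, an elongation factor subunit, fell by 0.84 (adjusted p = 0.047) and Nhp2, a protein of the small nucleolar RNA particles, by 1.10 (adjusted p = 0.025), and both calls were lost after scaling (-0.19 and -0.44). In LIPUS against Control as deposited, where 74.4% of all tested genes fell, 45 of 52 assembly genes (86.5%), 15 of 18 mTORC1 genes (83.3%), all 14 surveillance genes and 44 of 73 mitochondrial ribosomal protein genes (60.3%) fell, and none of these rose (limma); of the TOP companions 1 rose and 3 fell. Mdn1, an assembly ATPase, fell by 2.73 (adjusted p = 2.2e-05). Mtor, the kinase of mTORC1, fell too (-2.43, adjusted p = 4e-05 by limma), where the median of all tested genes was -1.48. The changes of Bms1, Ncl, Eif4g1, Eif4ebp2, Ascc3, Mdn1 and Mtor are as deposited. These genes were picked for a low adjusted p, so they do not stand for their lists. After scaling, where 11.6% of all tested genes rose and 14.3% fell, the calls in LIPUS against Control were 18 higher and 0 lower for the TOP companions, 3 and 4 for assembly, 1 and 7 for mTORC1, 2 and 1 for surveillance and 34 and 0 for the mitochondrial ribosomal proteins.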

How the data were processed

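RNA-seq libraries were made from total RNA of prostate tissue, 5 per group. The authors deposited FPKM per gene; the submitters' processing notes name fastp, HISAT2, SAMtools, HTSeq, R 3.2.0, DESeq2 and the build rn6, with no role or order. Whole reads were recovered from the deposited FPKM steps for 22436 of 22436 genes (tolerance 0.001), which gave 29675962 to 36402094 reads per library and gene lengths.

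Genes above 0.5 FPKM in at least 5 of 15 samples were kept (12490). log2(FPKM + 0.1) was fitted with limma 3.58.1 in R 4.3.3 over all 3 groups, as deposited, after median-of-ratios scaling over 10313 genes, and centred on the 73 plain-named genes; p-values were adjusted over all tested genes (Benjamini-Hochberg). A fold change on this scale understates the change of low genes. Paralogue ratios were tested by exact permutation (scipy 1.17.1, Python 3.11.15). Scripts were tested on simulated data. Alternatives were other filters, pseudocounts, scalings, array weights, limma-voom on the recovered reads, a replicate block, and leaving out libraries. Members, gene lists (TOP companions, assembly, mTORC1, surveillance, mitochondrial ribosomal proteins, cell type markers) and genes named were chosen with earlier results of these data known. Named genes are a fixed set by role, paralogue pairs, the 3 highest and 3 lowest in Control level and in change per comparison, up to 4 per direction with the lowest adjusted p relative to the family, every other-named member, and up to 2 per list with the lowest adjusted p; genes of the role groups were added. Sequences came from RefSeq (GRCr8), matched by gene number, and no coordinate of rn6 was used.

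Of 4 smooth muscle genes 3 tested lower in Model as deposited and 0 higher, and of 4 tested skeletal muscle genes 1 and 0, by limma. Over all tested genes 43.1% were lower and 2.95% higher. After scaling, 2 smooth muscle genes were lower and 0 higher, and 0 skeletal muscle genes were called either way. On that scale 20.2% of all tested genes were lower and 15.3% higher. The other marker lists are given with the results. Some genes that this rule would name are not reported here.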

Additional observations from a re-analysis of the deposited data

Results flagged for a closer look

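Of 102 sets of 5 libraries checked, 13 held a library set apart from the other 4 by a gap above 0.71 of the group's range; chance flags about 1 in 20 groups. Model 7 was the high library for Rpl10 (2440 FPKM), Rpl7a (746), Rpl27 (913), Rps27l (631) and Rpl7l1 (32.6), and for the log2 ratio of Rpl36al to Rpl36a (0.36, where the others lay from -1.09 to -0.89). Control 8 was the high library for Rplp2 (369 FPKM), Rpl10 (1292), Rpl41 (3388) and Rpl7l1 (42.9). Rpl3l stood at 1.08 FPKM in Model 10 and at 0.47 in LIPUS 7, and was listed at 0 in the other 4 libraries of each group. The log2 ratio of Rpl22l1 to Rpl22 was -1.31 in LIPUS 9 and -1.69 to -1.60 in the other LIPUS libraries. The causes were not tested.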

How the results depend on the processing

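The rise of ribosomal protein genes in Model kept its direction under every alternative run, with 52 to 61 genes called as deposited when 1 library was left out. All genes called there went from 5750 to 3379 with a stricter filter and 8953 with array weights (7680 scaled), and the family median from 1.16 to 1.94 with median-of-ratios factors. LIPUS against Model was the least stable. Its 25 genes called lower as deposited became 0 with no filter, median-of-ratios factors, nuclear-sum scaling, length centring or only 2 groups, 2 with quantile normalization and 38 without Model 7 and LIPUS 10, and ran from 0 to 52 when 1 library was left out. All genes called went from 1820 to 812, 526, 261, 861, 3, 479 and 4239 in that order, to 3637 with array weights, and from 8 to 4576 without 1 library. The family median was -0.13 with median-of-ratios factors, -0.18 with quantile normalization, -0.10 length-centred and 0.13, reversed, with nuclear-sum scaling. Scaled, 2 higher and 5 lower were called with array weights and 3 and 15 without both libraries (0 to 3 and 0 to 11 without 1 library); all genes called went from 526 to 271 with no filter, 2565 with array weights, 4390 without both libraries, 1 with only 2 groups, and 111 to 4008 without 1 library. In LIPUS against Control the 4 genes called higher as deposited became 2 with no filter, 28 with array weights, 73 with median-of-ratios factors, 37 with quantile normalization, 72 with nuclear-sum scaling, 60 length-centred, 33 without both libraries, and 2 to 26 without 1 library; all genes called were 3228, 3264, 3006 and 2026 under those 4 scalings in order, and the median 1.81, 1.52 and 0.86 with median-of-ratios, nuclear-sum and length-centred values. Length centring and leaving out both libraries were chosen after seeing the data, and the causes were not tested.

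Relative to the family, genes lower in Model ran from 9 to 20 without 1 library. LIPUS against Model gave 5 higher and 6 lower with array weights, 1 lower with pseudocount 1, and 0 to 9 higher and 0 to 10 lower without 1 library. LIPUS against Control gave 2 higher and 3 lower with pseudocount 1 or no filter, 10 lower with array weights, and 2 to 5 higher and 3 to 4 lower without 1 library. The Model change of Rpl10 as deposited was -0.22 with array weights, -0.63 with quantile normalization, -0.046 length-centred, -0.30 without both libraries and -0.30 to 0.15 without 1. That of Rpl27 was -0.019, -0.26, -0.39 and -0.10 in the same order, and -0.10 to 0.18. Rps18 was at -0.069 with quantile normalization. Rpl7a was at 0.61 with median-of-ratios factors, 0.066 with nuclear-sum scaling and 0.22 length-centred. Scaled, Rps27l was at -0.039 with array weights, -0.11 without both libraries and -0.11 to 0.43 without 1, and Rpl7l1 at -0.060, -0.068 and -0.064 to 0.085. In LIPUS against Model as deposited, Rpl27 was at 0.17 with array weights, 0.60 with median-of-ratios factors, 0.43 with quantile normalization, 0.86 with nuclear-sum scaling, 0.71 length-centred, 0.31 without both libraries and -0.21 to 0.14 without 1, and Eef1b2 at 0.066 with nuclear-sum scaling. Rpl10 ran from -0.042 to 0.43 there and Rpl7a from -0.061 to 0.35 without 1 library. In LIPUS against Control as deposited, median-of-ratios, quantile, nuclear-sum and length-centred values were 1.04, 0.40, 0.75 and 0.36 for Rpl10a, 1.22, 0.085, 0.93 and 0.35 for Rpl18 and 1.34, 0.20, 1.05 and 0.97 for Rpl3, which was at 0.022 with array weights, 0.028 without both libraries and -0.27 to 0.028 without 1. Without the secretory lobe genes the share of reads outside mitochondrially encoded genes was 3.99% in Control and 13.2% in Model.

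Without 1 library the paralogue changes ran as follows. Rpl22l1 ran from 0.19 to 0.50 in Model against Control, -0.44 to -0.28 in LIPUS against Control and -0.87 to -0.55 in LIPUS against Model. Rps27l ran from -2.71 to -1.83, -1.42 to -1.04 and 0.57 to 1.45 in that order. Rpl36al ran from -1.18 to -0.82, -1.13 to -0.78 and -0.21 to 0.21. Rpl7l1 ran from -2.15 to -1.77 and -1.81 to -1.53 in the first 2, and Rpl10l from -0.81 to 0.38 in LIPUS against Model.

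The shared library numbers showed little sign of pairing the samples. Same-numbered deviations correlated at -0.42 to 0.07 in Model against Control, -0.32 to 0.21 in LIPUS against Model and -0.11 to 0.25 in LIPUS against Control. In that order 0, 3 and 1 of 5 pairs lay above 0.1, and 1, 2 and 2 of 10 samples correlated best with their own number. With 5 pairs these values cannot decide whether the numbers stand for a pairing. With the replicate block, LIPUS against Model had 0 ribosomal protein genes lower and 3 genes called in all as deposited, and 128 genes called scaled. The paralogue values stayed at -0.37 for Rpl22l1, -1.27 for Rps27l, -0.97 for Rpl36al and -1.70 for Rpl7l1 in LIPUS against Control and -1.89 for Rpl7l1 in Model, where 5 pairs cannot reach the threshold (exact p = 0.0625).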
